A study of Rattus norvegicus with 13 samples.

Results

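The 10 core genes of the circadian clock, Arntl, Clock, Per1, Per2, Per3, Cry1, Cry2, Nr1d1, Nr1d2 and Dbp, were followed in the thyroids of 13 male Wistar rats. The genes were chosen by name, and every gene spot with one of these names was kept, which gave 10 of the 36174 gene names and 16 of the 45598 gene probes on the array. The rats came from dams that had received potassium iodide (KI) by gavage at 1 mg/kg/day for 8 days from gestational day 9 (6 offspring, the KI group), or saline instead (7 offspring, the control group). The thyroids were collected at 51 days of age, and total RNA was hybridised to 1 one-colour Agilent array per thyroid. Dosing was of the dams alone, and both groups were handled by gavage. Neither the litter of each animal nor its hour of collection is given in the labels, so animals were treated as independent and no level could be placed in the day. P-values therefore measure the spread between these 13 animals.

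The clock of a mammalian cell is a loop of transcription that runs about once a day in nearly every tissue, the thyroid included. ARNTL (also called BMAL1) and CLOCK form a dimer that binds E-boxes and activates the Per, Cry, Nr1d and Dbp genes, and the PER and CRY proteins then inhibit that dimer. NR1D1 and NR1D2 (REV-ERB alpha and beta) repress Arntl through ROR elements, and DBP activates genes that hold D-boxes, so that in tissues collected around the clock the Arntl transcript runs opposite in phase to Nr1d1 and Dbp. The comparisons below ask whether animals that stood high for Arntl stood low for these targets, and whether the KI group differed from the control group.

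RefSeq promoter windows of assembly GRCr8, from 250 bases before to 50 after the annotated start, were at hand for 9 of the 10 genes in 11 windows, with no window for Cry1. Motifs were searched on both strands by their letters, namely the E-box CACGTG, the E-prime box CACGTT, the D-box TTATGTAA or TTACGTAA, the ROR element TNGGTCA and the cAMP response element TGACGTCA. A ROR element lay 16 bases before the start of Arntl, and 11.1% of all 33469 windows held one. An E-prime box and a D-box lay 62 and 192 bases before the start of Per2, against 4.83% and 1.01% of all windows. An E-box lay 191 bases before the start of the first of the pair of Nr1d1 windows, against 6.42% of all windows, and E-prime boxes were found in Cry2 and in the other Nr1d1 window. No window of the 9 genes held a cAMP response element, which 1.83% of all windows did, and the windows of Clock, Per1, Per3, Nr1d2 and Dbp held none of the searched letters. The 250 bases before the start are shown for Arntl, Per2 and the first Nr1d1 window, on the strand of the gene, with the matched letters in capitals. The windows of Cry2 and the other Nr1d1 window, with an E-prime box each, are not shown.
Arntl, chr1:176766078-176766327 (plus strand): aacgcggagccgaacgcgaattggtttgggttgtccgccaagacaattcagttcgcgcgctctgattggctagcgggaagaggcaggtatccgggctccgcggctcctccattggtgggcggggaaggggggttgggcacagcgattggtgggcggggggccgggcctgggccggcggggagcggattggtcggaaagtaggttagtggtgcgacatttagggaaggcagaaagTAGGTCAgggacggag
Per2, chr9:99496994-99497243 (minus strand): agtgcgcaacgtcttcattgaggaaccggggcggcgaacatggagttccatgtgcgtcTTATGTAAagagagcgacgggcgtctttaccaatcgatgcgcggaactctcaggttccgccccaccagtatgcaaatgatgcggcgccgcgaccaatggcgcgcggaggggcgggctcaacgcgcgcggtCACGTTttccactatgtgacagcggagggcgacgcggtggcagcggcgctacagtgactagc
Nr1d1, chr10:84229455-84229704 (minus strand): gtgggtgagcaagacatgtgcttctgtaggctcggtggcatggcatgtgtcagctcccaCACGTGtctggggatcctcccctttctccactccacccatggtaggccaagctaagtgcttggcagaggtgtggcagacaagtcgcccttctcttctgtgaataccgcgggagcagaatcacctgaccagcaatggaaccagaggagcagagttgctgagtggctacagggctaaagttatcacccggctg

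Levels are given as log2 of the scanner's processed signal minus the 75th percentile of the array, so that 0 is the brightness of the spot at that percentile, and they are compared between animals for one probe and never between probes. Where a gene had more than 1 probe, its brightest probe is the one given unless another is named. Of 58717 gene spots, each array had from 34840 to 41050 well above background, and 0 were saturated. There were 6 slides and 3 scan sessions, which held 2, 3 and 1 KI animals with 2, 2 and 3 controls. A pair of controls stood apart: the median correlation with the other arrays was 0.959 for control 4 and 0.968 for control 6, against 0.978 to 0.983 for the other 11, and both were scanned in the first session together with KI 2 and KI 3. On these 2 arrays dim probes lay lower than elsewhere, at a median of -5.89 and -6.15 for probes under -5 against -5.74 to -5.45 on the other arrays. Main results on the dim probes of Nr1d1 and Clock are given without them as well.

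Arntl, the activator whose level is the usual reference for the phase of the clock, was well above background on all 13 arrays and spanned only 0.69 log2 units, a 1.62-fold range. Its probe lies at chr1:171161969-171162028 of the rn4 build named in the file headers. In the KI group its level was -1.43, -1.65, -1.11, -1.37, -1.27 and -1.47 in animals 1 to 6, and in the control group it was -1.22, -1.30, -1.39, -1.11, -1.34, -0.96 and -1.11 in animals 1 to 7. KI 2 was the lowest and control 6 the highest animal, 5 of 6 KI animals lay under the control median of -1.22, and the groups overlapped. Clock, which encodes the partner of ARNTL, was dim, with its brighter probe well above background on 10 arrays and the other on 7. The brighter probe ranged from -6.09 to -5.27 (median -5.72) in the KI group and from -6.31 to -5.73 (median -5.96) in the control group, and its lowest values were those of controls 4 and 6.

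The Per genes encode the inhibitors that are induced first in each cycle, and Per1 also responds to stress hormones. Per1 ranged from -0.79 to 0.76 (median 0.20) in the KI group and from -0.47 to 1.14 (median 0.16) in the control group, with control 1 and KI 2 the highest. Its other probe was dim, and all arrays but that of control 6 measured it above background. Per2 ranged from -4.65 to -2.84 (median -3.62) in the KI group and from -3.77 to -2.52 (median -3.47) in the control group. KI 3 had the lowest and control 4 the highest Per2 level, which were 4.37-fold apart. Per3 varied least of the 3, from -4.20 to -3.69 (median -3.81) in the KI group and from -4.24 to -3.51 (median -3.91) in the control group. The remaining Per3 probes, 2 in number, were not well above background on any array and were not tested.

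The Cry genes encode the other inhibitors of the ARNTL and CLOCK dimer. Cry1, which is known to peak late in the cycle, ranged from -3.39 to -1.64 (median -1.999) in the KI group and from -2.41 to -1.47 (median -2.21) in the control group. The lowest Cry1 level by far was that of KI 2 at -3.39, followed by KI 3 at -2.69, and every control lay above both. Cry2 was confined to 0.46 to 0.88 (median 0.59) in the KI group and 0.37 to 1.35 (median 0.70) in the control group. Controls 4 and 6 held the highest Cry2 levels, 1.35 and 1.10, where the median of equally bright probes was 0.90 and 0.81, against 0.62 on the lowest of the other arrays.

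Dbp, the D-box activator and a direct target of the dimer, was the best measured gene, with 10 spots per array whose standard deviation within an array was between 0.025 and 0.055. In the KI group its level was 0.54, 1.69, 0.62, 0.36, 1.10 and 0.54, and in the control group it was 1.09, 0.81, 0.65, 1.76, 0.71, 1.14 and 0.87. Control 4 and KI 2 were far above the rest, KI 4 was the lowest, and the range between animals was 2.65-fold. The spread between spots of an array does not measure differences between arrays. The Dbp level rose and fell with the median of 914 equally bright probes on the same array (r = 0.74), which ran from 0.82 to 1.125. A second Dbp probe, with 1 spot per array, correlated with the brightest at r = 0.91 over the 13 animals.

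Nr1d2, which encodes REV-ERB beta, was -0.05, 1.28, 0.72, -0.30, 0.58 and 0.28 in the KI group and 0.58, 0.00, -0.14, 0.47, 0.23, -0.07 and 0.11 in the control group. KI 2 was the highest and KI 4, as for Dbp, the lowest animal, 2.99-fold apart. Nr1d1, which encodes REV-ERB alpha, had a single dim probe, which was well above background in 6 of 6 KI animals and in 2 of 7 controls. Its level was -5.47, -3.56, -5.91, -6.40, -5.14 and -4.71 in the KI group and -4.44, -5.41, -6.66, -7.90, -6.15, -7.41 and -5.93 in the control group. KI 2 was the highest and control 4 the lowest, and the 20.3-fold range between them ends in a value that was not above background. The 60-base oligonucleotides of this probe and of the dim Nr1d2 probe are shown because the REV-ERB probes that varied most between animals were these dim ones. Each has 1 reading frame without a stop, and that of Nr1d1 spans chr10:87543165-87543519 of rn4, longer than the oligonucleotide itself.
Nr1d1 probe: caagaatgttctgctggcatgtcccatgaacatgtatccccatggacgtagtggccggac
Nr1d2 dim probe: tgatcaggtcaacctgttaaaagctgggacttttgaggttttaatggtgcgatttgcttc

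**Figure D1:**
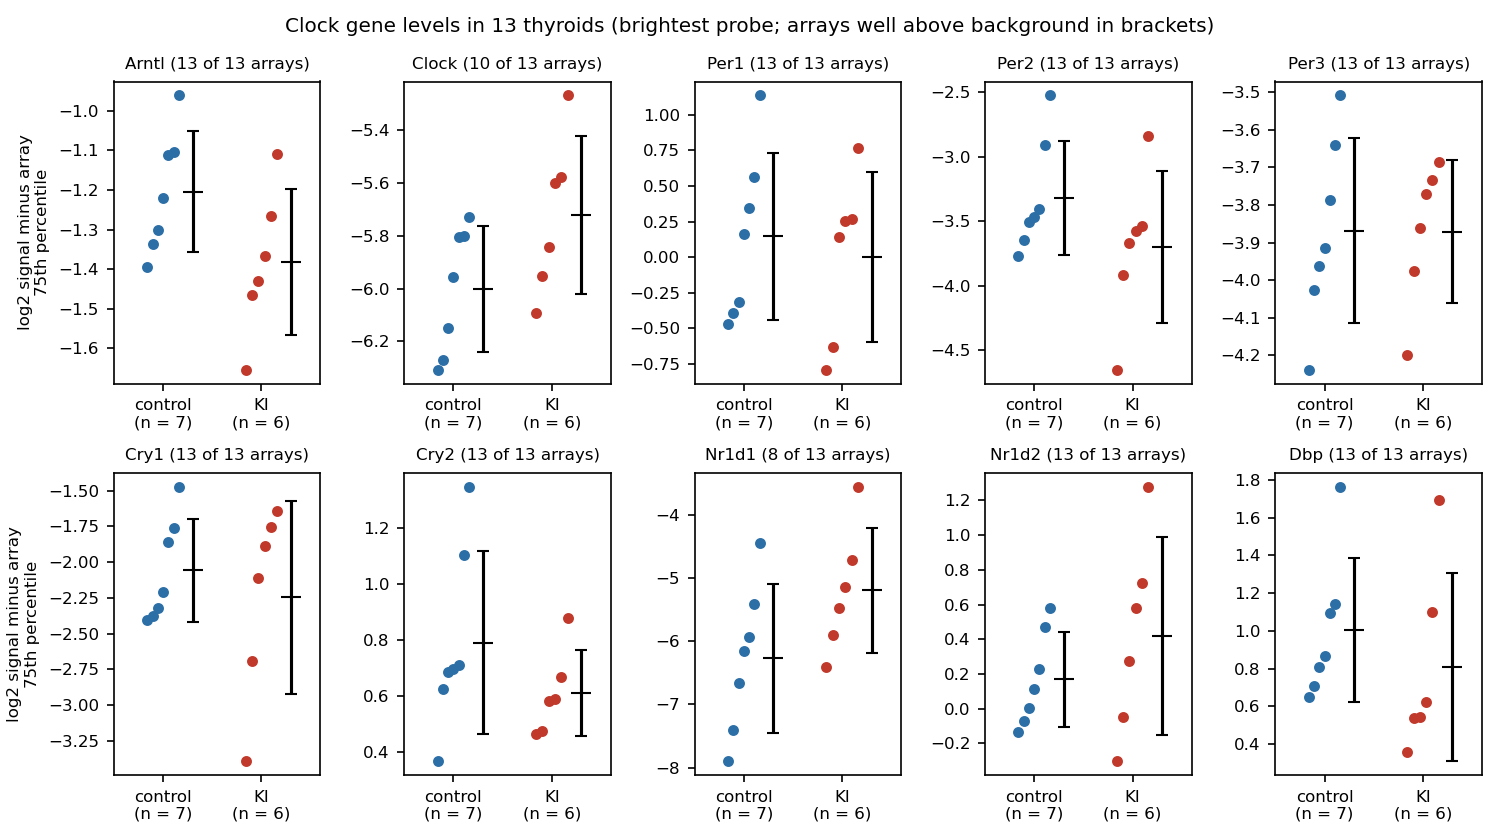
Levels of the 10 clock genes (log2 signal minus the array's 75th percentile, vertical axis, each panel with its own scale) in 7 control and 6 KI animals. Points are animals, bars the mean with its standard deviation, and the brackets give the arrays on which the probe was well above background. In every panel the groups overlap.

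**Figure D2:**
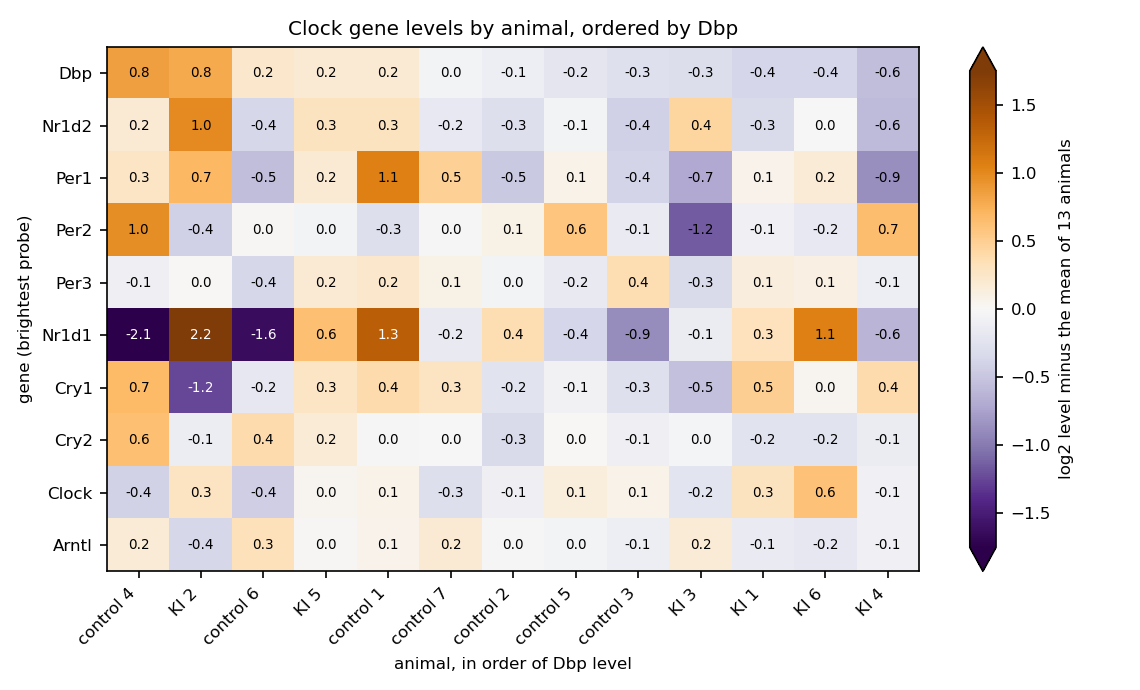
Level of each clock gene minus its mean over the 13 animals (log2, colour and printed value), with animals from the highest to the lowest Dbp level. Control 4 and KI 2 lead for Dbp and stand at opposite ends for Nr1d1.

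The clock genes differed widely in how much they varied between animals. The standard deviation within groups was above that of the median tested probe for 6 of the 10 genes, with a median percentile of 70.7 among the 25717 probes tested. It was highest for Nr1d1 (percentile 98.7, standard deviation 1.10), Per1 (85.5, 0.59), Cry1 (80.7, 0.53) and Per2 (79.6, 0.51). Dbp and Nr1d2 stood at the percentiles 71.1 and 70.2. Arntl was among the steadiest genes, at the percentile 13.6 with a standard deviation of 0.17. Over the alternatives the median percentile ran from 55.7 without KI 2 to 88.2 with normexp background correction. It was 86.2 with the deposited log2 values and 80.4 without controls 4 and 6.

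The relation of Arntl to its targets was tested over the 13 animals with Pearson's r and a two-sided permutation test of 100000 permutations, adjusted by Benjamini-Hochberg over the 9 relations. Arntl and Dbp gave no relation that passed the threshold (r = 0.10, p = 0.742, adjusted p = 0.825, Spearman's rho 0.40), and the sign turned to r = -0.18 with the second Dbp probe. This value rested on KI 2, which had the lowest Arntl and the next to highest Dbp level: without it r was 0.63. Without the 2 animals farthest from the median Arntl level, KI 2 and control 6, r was 0.62 (permutation p = 0.0332, adjusted p = 0.113, n = 11), and without controls 4 and 6 it was -0.29. Within the KI group r was -0.50 (exact permutation p = 0.331, n = 6) and within the control group 0.61 (exact permutation p = 0.142, n = 7).

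The Per genes gave no relation to Arntl that passed the threshold. For Per1 r was -0.22 (p = 0.479, adjusted p = 0.616, rho -0.08), for Per2 0.07 (p = 0.825, adjusted p = 0.825, rho 0.24) and for Per3 -0.47 (p = 0.103, adjusted p = 0.232, rho -0.40), all by the permutation test. Without KI 2 and control 6 these values were 0.21, -0.11 and -0.39, and Per3 had r = 0.04 with normexp correction. Nr1d2 had r = -0.24 (permutation p = 0.432, adjusted p = 0.616, rho 0.03), and r = 0.58 without those 2 animals.

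Nr1d1 and Clock ran against Arntl. For Nr1d1 r was -0.66 (rho -0.44), and -0.31 without KI 2 and control 6. The Nr1d1 probe was well above background in 6 of 6 KI animals but only 2 of 7 controls, so its relation is a description without a p-value. With group means subtracted its r was -0.555, and within the control group -0.42. Clock had the closest relation of all (r = -0.84, permutation p = 0.00042, adjusted p = 0.00378, rho -0.86), and r was -0.85 without KI 2 and control 6. The probes of both genes are dim. Their levels rose and fell with the median of equally dim probes on the same array (r = 0.51 for Nr1d1 over 1779 such probes and 0.50 for Clock over 1728), whereas Arntl ran slightly against its own equally bright probes (r = -0.37). With that median subtracted r was -0.72 for Nr1d1 and -0.57 for Clock, and the adjusted p of Clock was then 0.138. With normexp background correction, which compresses dim signals, r was -0.43 and -0.01, and without controls 4 and 6 it was -0.46 and -0.76 (adjusted p = 0.0734 for Clock by the permutation test).

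The Cry genes ran with Arntl, though not past the threshold. For Cry2 r was 0.63 (permutation p = 0.0205, adjusted p = 0.0615, rho 0.68) and 0.40 without controls 4 and 6, and without KI 2 it passed (r = 0.69, adjusted p = 0.0481 by the permutation test). For Cry1 r was 0.37 (permutation p = 0.209, adjusted p = 0.376, rho 0.13) and -0.11 without KI 2. The 3 scan sessions held 4, 5 and 4 animals, too few for a correlation of their own. With the session means subtracted r was -0.09 for Dbp, -0.18 for Per1, 0.11 for Per2, -0.38 for Per3, -0.67 for Nr1d1, -0.86 for Clock, -0.46 for Nr1d2, 0.60 for Cry1 and 0.59 for Cry2.

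**Figure D3:**
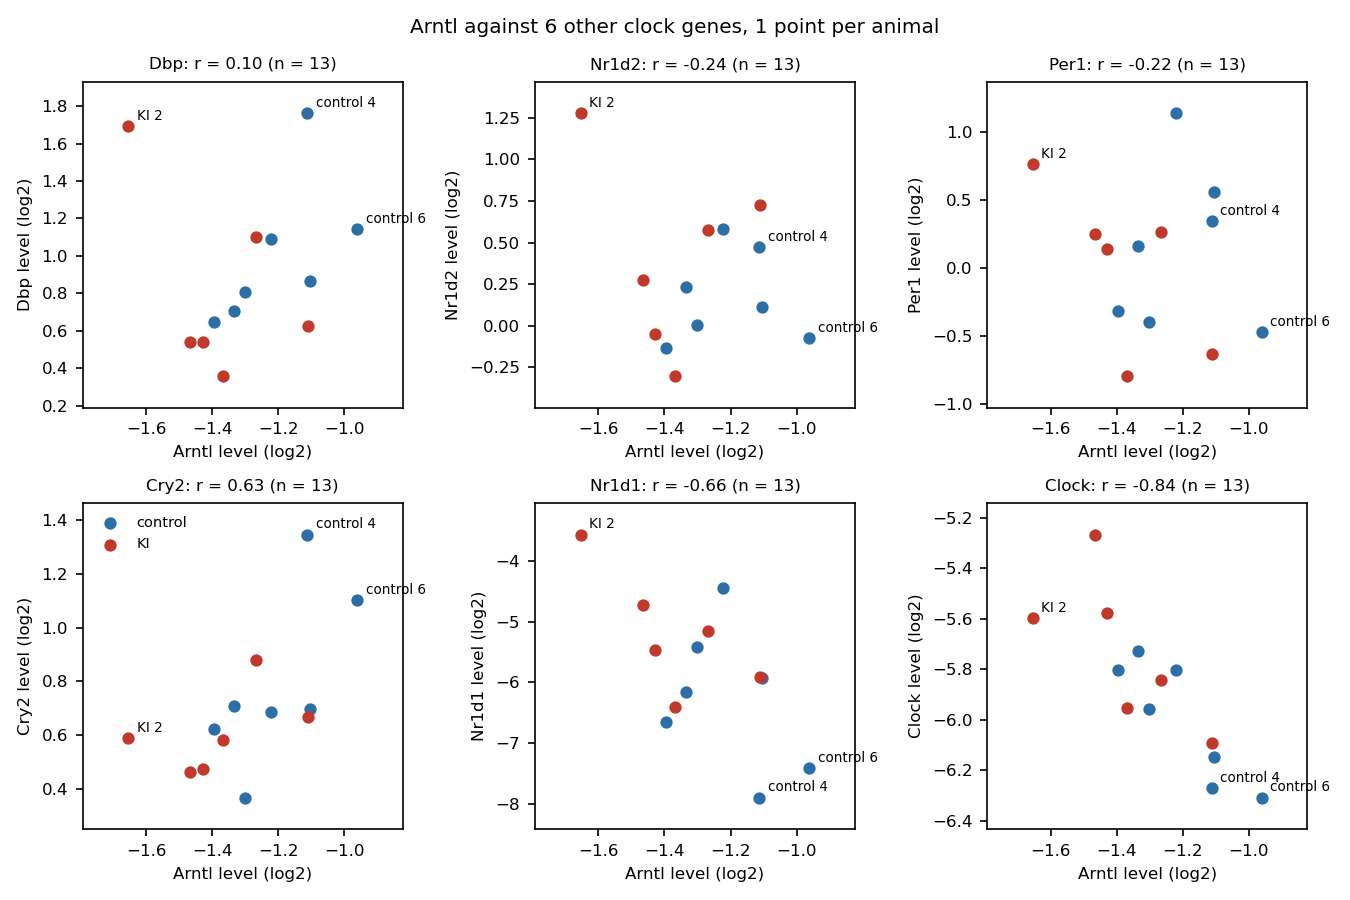
Level of 6 clock genes (vertical axes, log2) against that of Arntl (horizontal axes, log2) in 13 animals, with KI 2 and controls 4 and 6 named. In the Dbp panel KI 2 sits alone at the upper left, and in the Clock and Nr1d1 panels controls 4 and 6 lie at the lower right.

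Across all probes, each was fitted on the Arntl level and the group with limma. After Benjamini-Hochberg adjustment 0 of 25716 probes (0%) passed 0.05, the smallest adjusted p was 0.550, and without adjustment 1575 probes (6.12%) fell with Arntl and 480 (1.87%) rose. This balance depended on the scaling, with 3330 falling and 5019 rising when the percentile was taken over averaged probes, 1472 and 1340 with quantile values and 922 and 990 with the deposited values. Among the 13 clock probes other than that of Arntl, 4 passed 0.05 without adjustment in limma, all falling with Arntl. They were both Clock probes, the Nr1d1 probe and the dim Per1 probe, each with an adjusted p of 0.550 in limma. Each of the 4 was below the flag for background on at least 1 array. The Nr1d1 probe was above it in only 2 of 7 controls, so its place among the 4 is a description. Of the 8 clock probes that were well above background on all 13 arrays, 0 passed, and without controls 4 and 6 the count was 2 of 13.

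Among the targets of the loop, the brightest probes of Dbp, Nr1d2 and Per1 correlated positively with each other. Over the 13 animals r was 0.64 between Dbp and Nr1d2, 0.53 between Dbp and Per1, 0.57 between Per1 and Nr1d2 and 0.56 between Nr1d1 and Nr1d2, given as a description. With the quantile, normexp and deposited values the first ranged from 0.57 to 0.64 and the second from 0.47 to 0.54. Without controls 4 and 6 they were 0.82 and 0.68, and without KI 2 they were 0.44 and 0.43. Without KI 2 the relation of Nr1d1 to Nr1d2 was 0.29. The dim probes of Nr1d2 and Per1 had r = -0.02 and 0.21 with Dbp. Dbp also ran with Cry2 (r = 0.64), which was 0.44 when the median of equally bright probes was subtracted and 0.29 without controls 4 and 6. Of the 45 pairs, 10 had r of 0.5 or more and 6 of -0.5 or less. How often pairs of other probes pass those cuts on these arrays was not computed, so the counts are a description. Over 4 kinds of processing 5 clock pairs stayed at 0.5 or more, and 1 pair, Cry1 and Nr1d2, at -0.5 or less. That pair had r = -0.51 over all animals, -0.02 without KI 2, -0.90 within the KI group and 0.85 within the control group.

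In limma with Dbp in place of Arntl, 2 of 25715 probes (0.00778%) passed 0.05 after adjustment, both falling as Dbp rose, and without adjustment 2661 (10.3%) rose and 2604 (10.1%) fell with Dbp. Of the 12 clock probes of other genes, 2 passed without adjustment, both rising. They were those of Nr1d2, with a slope of 0.75 log2 units per log2 unit of Dbp (adjusted p = 0.104 in limma), and Cry2, with a slope of 0.36 (adjusted p = 0.213 in limma). With Nr1d2 as the reference, 0 probes passed after adjustment, 2729 (10.6%) rose and 1000 (3.89%) fell without adjustment, and 3 of the 12 clock probes of other genes were among them, namely both Dbp probes and the bright Per1 probe, all rising.

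**Figure D4:**
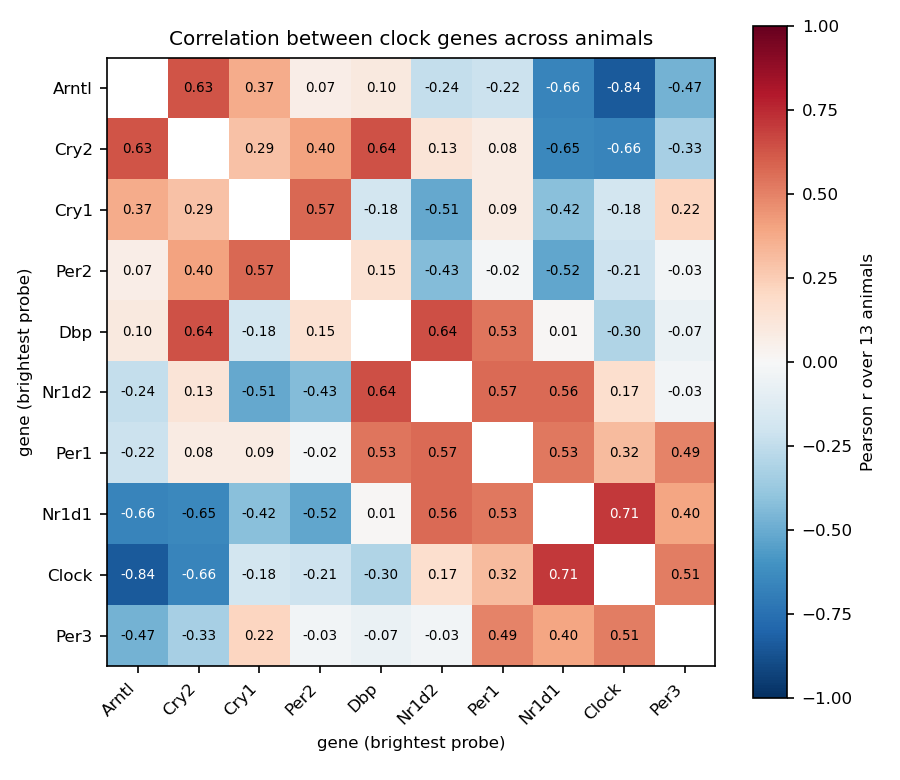
Pearson r over 13 animals (colour and printed value) between the brightest probes of the 10 clock genes. Dbp, Nr1d2 and Per1 form a block of positive values from 0.53 to 0.64, and the row of Arntl is near 0 for Dbp and Per2 and reaches -0.84 for Clock.

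Whether the levels mark the hour of collection could not be checked, since no hour is given. The only order in the labels is a pair of numbers in each sample's description, with no meaning stated, the first between 138 and 194 and the second between 2 and 47. Of 6 relations tested between these numbers and Arntl, Dbp or Per3, 1 passed 0.05 after Benjamini-Hochberg adjustment: animals with a higher first number had less Arntl (r = -0.78, permutation p = 0.00162, adjusted p = 0.00972, rho -0.59). KI 2 carries the highest first number and the lowest Arntl level. Without it r was -0.63 (permutation p = 0.0306, adjusted p = 0.0918), and without the 2 animals with the farthest numbers r was -0.58. With scan session means subtracted it did not pass either (r = -0.79, permutation p = 0.106, adjusted p = 0.212). Dbp had r = 0.31 with the first number and r = -0.59 with the second (permutation p = 0.0341, adjusted p = 0.102). Per3 had r = 0.48 with the first number (permutation p = 0.0992, adjusted p = 0.198). Without KI 2 this Per3 relation passed in place of that of Arntl (r = 0.77, permutation p = 0.00419, adjusted p = 0.0251). In the first session the mean Dbp level was 1.31, against 0.82 and 0.65 in the other sessions, and the mean Arntl levels were -1.21, -1.34 and -1.30.

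No difference of a clock gene between the KI and control groups passed the threshold. In limma, 0 of the 14 clock probes tested and 0 of all 25717 (0%) had an adjusted p under 0.05, and 0 of the 14 had an unadjusted p under 0.05, where 2898 probes (11.3%) did. Those 2898 were 1789 higher (6.96%) and 1109 lower (4.31%) in the KI group. With the 75th percentile taken over averaged probes they were 1469 higher and 1802 lower, and with normexp correction 1312 higher and 2463 lower. The median difference over all probes moved from 0.001 to -0.08 and -0.06.

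The mean Nr1d1 level was 1.07 log2 units higher in the KI group, given as a description, since the probe met the minimum of 6 arrays above background only through the KI group and 5 of the 7 control values were not above background. The difference lay in the first scan session, in which KI 2 and KI 3 exceeded controls 4 and 6 by 2.92, while the difference was -0.18 and -0.16 in the other sessions. Without controls 4 and 6 it was 0.52, and with normexp correction 0.22. The dim Nr1d2 probe was above background in 6 of 6 KI animals and 3 of 7 controls, and is counted among the 14 tested without a value of its own here. The bright Nr1d2 probe differed by 0.25 (standard error 0.23, adjusted p = 0.641 in limma, exact permutation p = 0.336), and by 0.08 without KI 2.

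Arntl was lower in the KI group by its mean, with a difference of -0.18 (standard error 0.11, adjusted p = 0.497 in limma, exact permutation p = 0.0833). The difference within the 3 sessions was -0.35, -0.13 and -0.09. For Dbp it was -0.19 (standard error 0.23, adjusted p = 0.717 in limma, exact permutation p = 0.435), and -0.29, -0.22 and -0.38 within the sessions. The Dbp difference was -0.37 without KI 2, -0.10 without KI 4, -0.07 without control 4, -0.04 with array weights and -0.02 without controls 4 and 6. Without controls 4 and 6 that of Arntl was -0.11. Clock differed by 0.28 (standard error 0.15, adjusted p = 0.466 in limma), by -0.04 with normexp correction and by 0.17 without controls 4 and 6. Per2 differed by -0.38, Cry1 by -0.19, Cry2 by -0.18, Per1 by -0.15 and Per3 by -0.003, with adjusted p between 0.545 and 0.993 in limma. Without KI 2 the Cry1 difference was 0.04, without KI 3 and without control 4 that of Per2 was -0.19 and -0.25, and that of Cry2 was -0.09 without control 4 and -0.01 without controls 4 and 6.

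**Figure D5:**
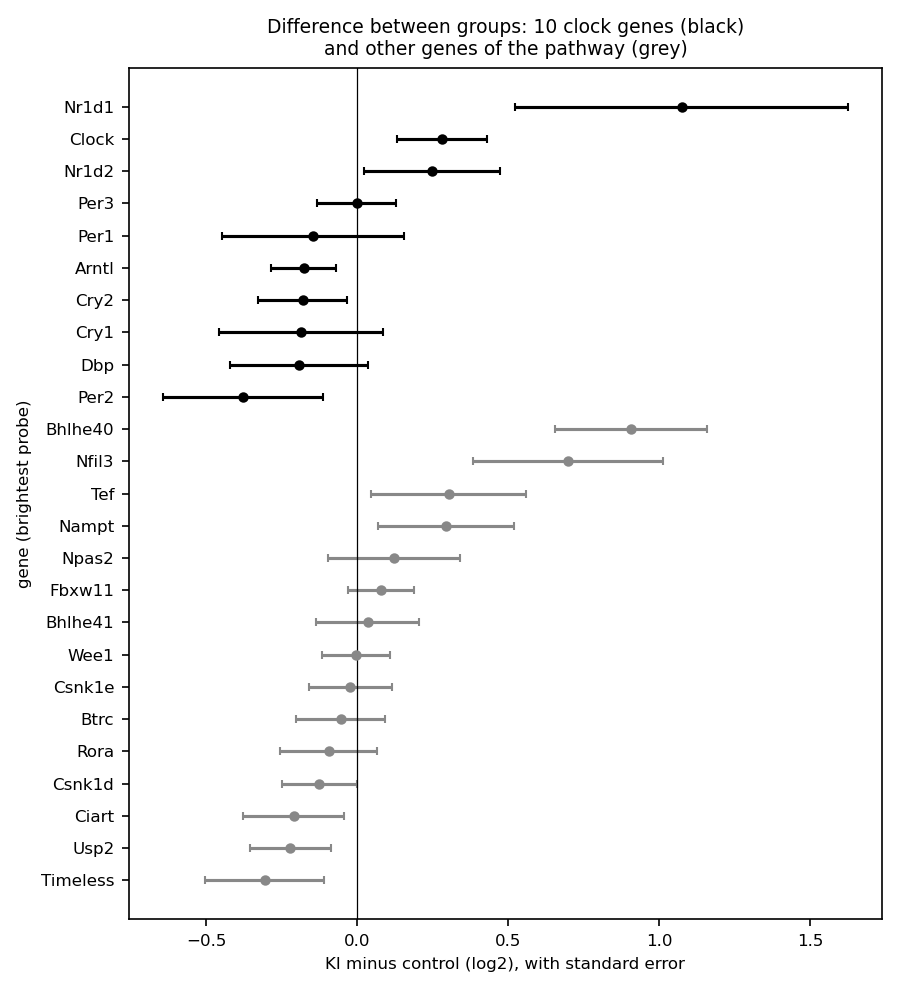
Difference between the KI and control groups (log2, horizontal axis) with its standard error from limma, for the 10 clock genes (black) and further genes of the pathway (grey). The differences lie between -0.38 for Per2 and 1.07 for Nr1d1, and among the further genes Bhlhe40 at 0.91 stands farthest from 0.

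Of 21 further genes of the clock pathway, 18 were on the array and 16 were tested, with a median difference of -0.01 between the groups against 0.001 over all probes. None passed after adjustment, and 2 passed 0.05 without adjustment in limma, both higher in the KI group, where 6.96% of all probes were higher at that level. Bhlhe40, a repressor of the ARNTL and CLOCK dimer that also responds to many stimuli, was -3.19, -2.72, -2.33, -3.40, -3.26 and -3.60 in the KI group and -3.79, -3.28, -3.78, -4.30, -3.86, -4.90 and -4.04 in the control group. All 6 KI animals lay above the control median, and the groups overlapped only through control 2. The difference was 0.91 (standard error 0.25, adjusted p = 0.440 in limma, exact permutation p = 0.00408), with 2.07, 0.19 and 0.49 within the 3 sessions and 0.66 without controls 4 and 6. Nfil3, a D-box repressor that opposes DBP, differed by 0.70 (standard error 0.31, adjusted p = 0.442 in limma, exact permutation p = 0.0641), and controls 4 and 6 had its lowest levels, -5.60 and -5.23.

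In the same list, 2 of 16 genes rose with Arntl at p under 0.05 without adjustment in limma and 0 fell, where 1.87% and 6.12% of all probes did. This count was 0 without controls 4 and 6, 4 with deposited values, 5 without KI 2 and 7 with the percentile over averaged probes. The 2 genes were Ciart (r = 0.75, p = 0.00977), a clock repressor that is itself a target of the dimer, and Bhlhe41 (r = 0.56, p = 0.0132). With Dbp, 4 of 16 rose and 0 fell, where 10.3% and 10.1% of all probes did, among them Btrc (r = 0.91, p = 0.000171), a ubiquitin ligase adaptor that binds PER proteins, Rora (r = 0.76), the activator at ROR elements, and Timeless (r = 0.66). None passed after adjustment over all probes, and Tef, a relative of Dbp, had r = 0.41. A second Btrc probe, also well above background on all 13 arrays, had r = 0.57 with Dbp (unadjusted p = 0.0879 in limma).

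Among 17 genes that glucocorticoids, cAMP or handling can change, 16 were tested and 1 passed 0.05 without adjustment in limma, where 11.3% of all probes did. Atf3, an immediate stress gene, was 0.48 higher in the KI group (standard error 0.19, adjusted p = 0.440 in limma, exact permutation p = 0.0309). With Arntl, 1 of the 16 rose without adjustment in the fit with group, again Atf3, and 0 fell, where 1.87% and 6.12% of all probes did. Without the group in the calculation, the r of Atf3 with Arntl was 0.28. With Dbp, 4 of the 16 rose (Tsc22d3, Errfi1, Cdkn1a and Klf9, r from 0.69 to 0.80) and Egr1 fell (r = -0.60), again beside 10.3% and 10.1% of all probes. Of these, Tsc22d3 and Klf9 are known glucocorticoid targets. Fkbp5 and Sgk1, further glucocorticoid targets, had r = 0.20 and 0.05 with Dbp. A second Errfi1 probe, also well above background on all 13 arrays, had r = -0.05 with Dbp. Over the list the median r with Dbp was 0.16, against -0.01 over all probes.

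Of 11247 named genes with a probe above background on all arrays, those most like Arntl over the 13 animals were Thbd, Cxcl12, Lsm8, Yipf4 and Svop (r from 0.84 to 0.88), and those most opposed were Fabp3, Pih1d1, Hps4, Ints4 and Nsun6 (r from -0.89 to -0.85). Most like Dbp were Mrpl44, Fis1, Mrpl30, Tmem52 and Zbtb5 (r from 0.94 to 0.95), and among the most opposed were Rasl2-9, Nes, Tbc1d8b and Erp29 (r from -0.88 to -0.86). No clock gene was among them, and their association had an adjusted p of 0.550 with Arntl and from 0.0876 to 0.102 with Dbp in limma.

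The tissue was checked against markers, as the thyroid lies beside muscle, fat and the parathyroids, and in whole tissue fewer cells of a type and less RNA per cell cannot be told apart. Of 10 thyrocyte genes 9 were measured, with a summed level from 8.05 to 8.31 in the KI group and from 8.17 to 8.50 in the control group. All 9 skeletal muscle genes were measured and were lower on average in the KI group (1 at p under 0.05 without adjustment in limma), with a summed level from 0.45 to 4.56 against 2.45 to 5.46. The summed muscle level had r = 0.04 with Arntl and 0.32 with Dbp, that of thyrocyte genes 0.30 and 0.68, that of 4 endothelial genes 0.48 and 0.78, that of 3 parathyroid genes 0.56 and 0.61 and that of 4 C cell genes -0.40 and -0.68. Of the other markers measured, at p under 0.05 without adjustment, 1 of 3 blood, 1 of 3 parathyroid and 1 of 4 C cell genes were higher in the KI group, 0 of 7 adipocyte genes passed, 1 of 4 endothelial genes was lower, and 1 of 6 lymphocyte genes was measured and did not pass. Of all probes, 6.96% were higher and 4.31% lower in the KI group at that level, so these counts are a description. The part of the cell mixture in the levels of the clock genes was not tested.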

How the data were processed

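Every array came with its scanner output, deposited by the authors as the intensity that Agilent Feature Extraction 10.7.3.1 writes for a spot once background and spatial trend are removed; arrays were not scaled to each other at that stage. A matrix of log2 values was deposited as well. How the authors normalized it is not given in the sources used here, so its centring is unknown; its columns follow the rank of the mean spot signal (Spearman's rho at least 0.998 on each array), have medians from 7.16 to 7.30 and served as an alternative. Columns of samples outside the series numbered 0.

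The processed signal was taken to log2, and the array's 75th percentile over gene spots was subtracted. Control spots and spots marked as outliers were dropped, and replicate spots of a probe averaged, which left 67 probes without a value on some array. Testing covered the 25717 probes that 6 or more arrays measured well above background, with limma 3.58.1 in R 4.3.3 (lmFit, eBayes, Benjamini-Hochberg, threshold 0.05). Single genes were also tested by a 2-sided exact permutation over the 1716 ways to divide the animals into 6 and 7, where the smallest possible p is 0.000583. Correlations used Python 3.11.15 with numpy 2.4.6. On simulated arrays 200 of 25650 probes were changed. Of these, limma recovered 16% at a log2 difference of 0.5 between the groups, 62% at 1 and 94.5% at 2. For the Arntl association it recovered 0% at a slope of 1, 20.5% at 2 and 76% at 4. With 13 simulated animals the permutation test passed 44% of true correlations of 0.5. The number of arrays limits the precision.

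The members, the lists of other genes and the tests were chosen with earlier results of these data known. The text names all 10 clock genes, list members that passed a test and a few others chosen after their values were seen, and the 5 genes most and least correlated with Arntl and with Dbp, except 2 genes that are not reported here. Probe coordinates are those of the files (rn4), and promoters are those of RefSeq on GRCr8.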

Additional observations from a re-analysis of the deposited data

How the results depend on the processing

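The clock probes that passed after adjustment between the groups numbered 0 under all 25 alternatives. Over 248 alternatives of the 10 single differences, 236 kept their direction, 12 turned and 0 passed, with adjusted p in limma from 0.242 to 0.994. Dim probes, small groups and an unknown collection time limit all of these values, and the causes of the changes below were not tested.

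Over all probes, 7 passed between the groups with array weights and 0 to 1 with an animal left out (1 without control 2), and 2 passed with Dbp in place of Arntl. Probes at an unadjusted p under 0.05 ranged from 2066 to 4443 between the groups and from 695 to 8349 for Arntl (8349 with the percentile over averaged probes, 701 without controls 4 and 6). Single clock genes at that level numbered 1 with the slide as a block, 2 with the replicate number as a block (0 after adjustment over all probes) and 0 to 2 with an animal left out. The labels do not say whether the replicate numbers pair the animals. Deviations of animals with the same number correlated at -0.11 to 0.07, which gives no sign of pairing but cannot exclude it. The group difference turned to -0.0352 for Clock with normexp, to 0.0061 and 0.0109 for Per3 with the slide and the replicate number as a block, and to 0.0084 for Cry1 with array weights. With an animal left out it ranged from -0.0643 to 0.0631 for Per3, -0.31 to 0.0424 for Cry1 and -0.30 to 0.019 for Per1.

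Arntl against Clock no longer passed with quantile (-0.62), normexp (-0.0075) or deposited values (-0.60), without controls 4 and 6 (-0.76) or with equally bright probes subtracted (-0.57). Nor did it pass with slide means subtracted (-0.84) or within the KI (-0.71) or control group (-0.89), where fewer permutations exist. With the replicate number as a block r was -0.95. That block allows only 64 permutations, and the exact permutation p of 0.0312 is the smallest possible there. Clock could therefore not pass in that setting (adjusted p = 0.281). Arntl against Nr1d1 had r = -0.77 with deposited values and -0.77 with the percentile over averaged probes. It ranged from -0.74 to -0.49 with an animal left out. These Nr1d1 values are a description, since most controls were not above background. Arntl against Cry2 passed with the percentile over averaged probes (0.81) and ranged from 0.52 to 0.69, passing without KI 2. Arntl against Per1 turned within the control group (0.056) and without the 2 farthest animals (0.21). Arntl against Per2 turned with the replicate number as a block (-0.0109), group means subtracted (-0.14), within the KI group (-0.33), without the 2 farthest animals (-0.11) or controls 4 and 6 (-0.18), was 0.82 with slide means subtracted (adjusted p = 0.125 by the exact permutation test) and ranged from -0.11 to 0.35 with an animal left out. Arntl against Per3 turned with normexp (0.0352) and deposited values (0.0509). Arntl against Nr1d2 turned within the control group (0.0897), by rank (0.033) and without the 2 farthest animals (0.58), ranging from -0.35 to 0.30. Arntl against Dbp turned with deposited values (-0.044), session (-0.0914) or group means subtracted (-0.0183), within the KI group (-0.50), with the other Dbp probe (-0.18), without controls 4 and 6 (-0.29) or with equally bright probes subtracted (-0.0861), ranging from -0.0848 to 0.63. Arntl against Cry1 ranged from -0.11 to 0.51.

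Clock pairs at 0.5 or beyond in size numbered 16, and 10 without controls 4 and 6. Label numbers related to a clock gene numbered 1, but 0 by rank or without the 2 farthest numbers, 2 with group means subtracted (Arntl with the first and Dbp with the second), 2 with session means subtracted (Arntl with the second and Per3 with the first) and 1 to 2 with an animal left out. Without KI 2 the relation that passed was that of Per3 with the first number, not that of Arntl. For Arntl and the first number r was -0.59 by rank, -0.58 without the 2 farthest numbers and -0.79 with session means subtracted, none of which passed. The clock pathway count of 2 was 1 with normexp or without controls 4 and 6 and 1 to 3 with an animal left out; the stress count of 1 was 0 with quantile values, 2 with normexp and 0 to 4 with an animal left out.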
